A study of Mus musculus with 18 samples.

Results

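Zeb2 KO mouse embryonic stem cells (ESCs) were followed over the first 4 days of neural differentiation (ND), and what these cells still changed without Zeb2 is described here. The 6 libraries of Zeb2 KO cells from d0 and d4 were taken from the 18 libraries of the series by their genotype and day, and d4 was compared with d0 across all 10965 different genes of the deposited table. KO cells carry the genotype Zeb2 -/- and control (Ctrl) cells the genotype Zeb2 fl/fl, both on strain CD1, and each genotype has 3 libraries per day, which the design text calls biological replicates. At d0 the cells grew without feeders in serum-free 2i + LIF medium, for which the labels give 0.4 µM PD0325901 (an inhibitor of MEK), 1 µM CHIR99021 (an inhibitor of GSK3) and 1000 U/ml LIF. The methods of the study give higher doses of both inhibitors. The cells were then plated in bacterial dishes in embryoid body (EB) medium with 15% serum, and those of d4 are labelled as multipotent progenitors. The study describes the d4 stage as one of culture with serum. On d4 the protocol replaces that medium by N2B27 with 500 nM retinoic acid (RA), and the labels do not say whether collection came before or after. The KO cells come from Zeb2 flox/flox ESCs that had transiently received Cre, which deletes the gene in the culture and not in an animal, and the clone or line that was sequenced is not given.

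In 2i + LIF, mouse ESCs are held in a naive state that resembles the epiblast before implantation, kept by a network of transcription factors such as Nanog, Klf4, Tfcp2l1 and Esrrb. When the inhibitors and LIF are removed, the network is dismantled, the cells pass through a formative state like the epiblast just after implantation, marked by Otx2, Fgf5 and the de novo DNA methyltransferases, and then become able to form germ layers. Zeb2 encodes a zinc-finger transcription factor that binds paired E-boxes, represses Cdh1 and other epithelial genes, binds receptor-activated Smads and is needed for neural differentiation.

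Zeb2 (ENSMUSG00000026872; chromosome 2, 44983632 to 45117395, minus strand, GRCm38) was lower in the KO cells than in Ctrl on both days. The KO libraries of d0 held 1, 3 and 1 reads on the gene and those of d4 12, 24 and 15 reads, against 19, 14 and 13 reads in the Ctrl libraries of d0 and 173, 180 and 193 reads in those of d4. The deposited TPM scale the read count plus 1 by gene length and library total. In TPM these are 0.0171, 0.0274 and 0.0203 in KO at d0 and 0.126, 0.204 and 0.161 in KO at d4. The added read makes up a large part of the KO d0 values. All 3 KO libraries thus lay below all 3 Ctrl libraries on each day. Values of Zeb2 were compared as the mean of log2(TPM + 1) in a limma model of all 18 libraries, in which a log2 fold change is d4 minus d0. A gene is called where its p, adjusted over all genes by the method of Benjamini and Hochberg, lies below 0.01. The change was 0.19 ± 0.12 (SE, adjusted p = 0.170) in KO, which was not called, and 1.06 ± 0.12 (SE, adjusted p = 4.62e-07) in Ctrl. At these read numbers the KO value depends on the scale, and its call on the scale and the model of the variance. The KO change was called with a pseudocount of 0.1, where it was 1.11, and with voom on the recovered reads, where it was 3.17. It was also called at the same value of 0.19 when eBayes was run without a mean-variance trend. The labels do not say which exons were deleted, so that the remaining reads were not assigned to a part of the transcript.

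The libraries held 9622622 to 14741304 reads on these genes in KO d0 (median 11583422) and 10246746 to 12640972 in KO d4 (median 10251396), recovered from the TPM values. Markers of other cells were low. Of 12 fibroblast markers, as carried by feeder cells, 5 were in the table, with summed levels of 6.42 to 7.63 TPM in KO d0 and 18.5 to 24.1 TPM in KO d4, and the surface protein gene Thy1 made up most of the sum at d4 (12.2, 16.3 and 11.1 TPM). Thy1 (3.12) and Fbn1 (0.87) rose, and the part of such cells in the other results was not tested. The collagen genes Col1a1 and Col1a2 were at 0.589 to 0.710 and 0.0658 to 0.176 TPM at d4. Since the samples are bulk cultures, fewer cells of a type and less RNA per cell cannot be told apart in any of the values below.

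Leaving 2i + LIF changed 6215 genes (56.7%) of the measured transcriptome of Zeb2 KO cells. From d0 to d4, 3926 of 10965 genes (35.8%) rose and 2289 (20.9%) fell at an adjusted p below 0.01, and in Ctrl 4945 (45.1%) rose and 2443 (22.3%) fell, 67.4% in all. With a change of more than 1 on the log2 scale as well, 1646 genes (15.0%) rose and 778 (7.10%) fell. In Ctrl, 2330 genes (21.2%) rose and 707 (6.45%) fell by that rule. The d4 libraries of KO lay all above the d0 libraries for 4730 genes (43.1%) and all below them for 2910 (26.5%). The balance of rises and falls rests on the scaling of the libraries. Rises made up 67.9% of the KO changes over 1 in the TPM as deposited, where the median gene rose by 0.15 on the log2 scale. They made up 58.7% (1405 rises and 989 falls) after median-ratio rescaling, which gives every library the same typical gene level and moved the median gene by 0.16, and 50.4% (1001 and 984) after quantile normalization. The medians of gene groups below therefore stand beside the 0.15 of all genes.

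**Figure D1:**
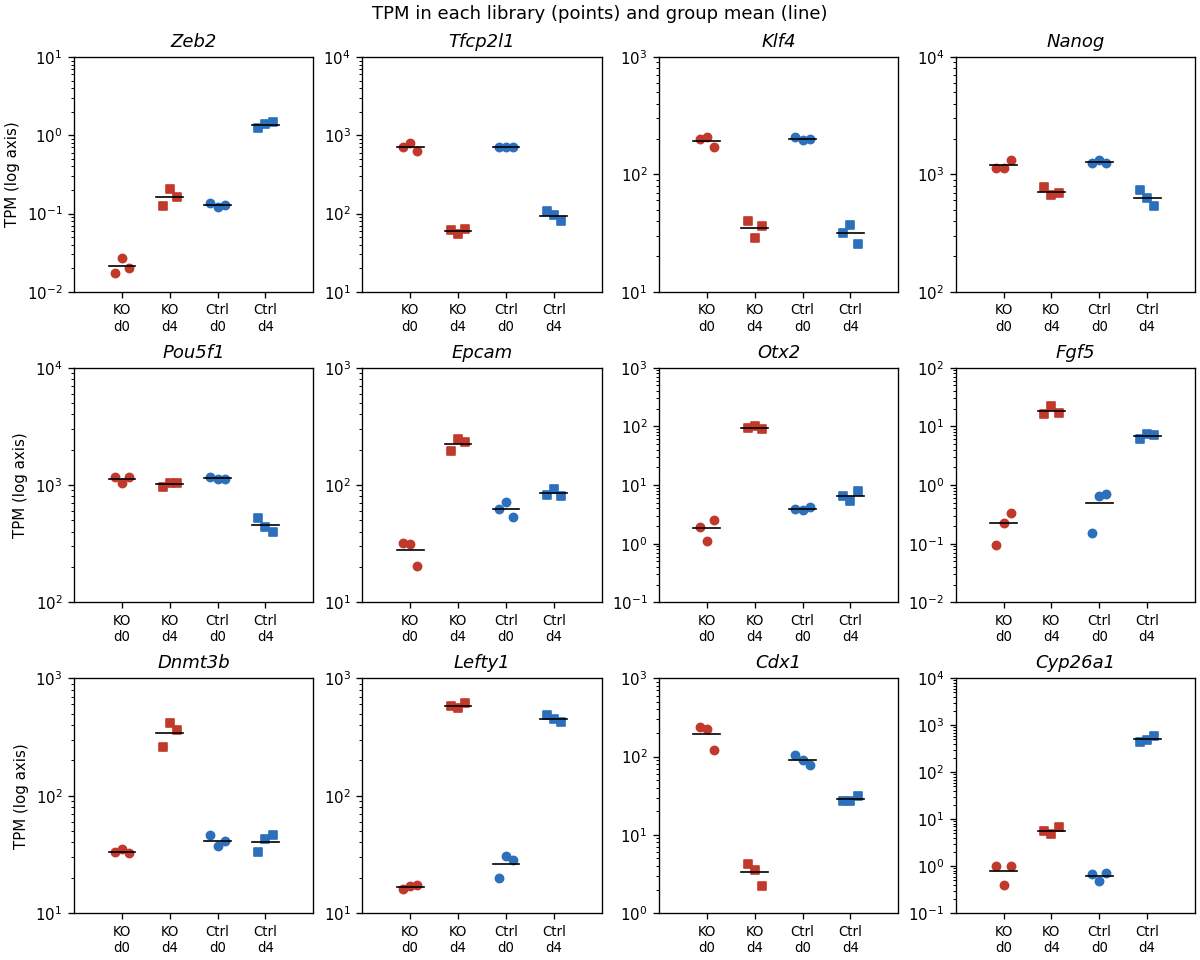
TPM (log axis) of 12 genes in each library of Zeb2 KO (red) and Ctrl (blue) at d0 (circles) and d4 (squares), with the group mean as a line. Zeb2 lies lower in KO than in Ctrl on each day, Tfcp2l1, Klf4 and Nanog fall in both genotypes, Pou5f1 stays near 1000 TPM in KO and falls in Ctrl, Otx2, Dnmt3b and Epcam rise mainly in KO, and Cyp26a1 reaches 448 TPM or more in Ctrl d4 against at most 6.71 TPM in KO d4.

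Car4, Trh, Otx2 and Lefty1 had the largest rises in KO. Car4, a membrane-bound carbonic anhydrase, had 0.443, 0.495 and 0.418 TPM at d0 and 58.4, 71.6 and 59.9 TPM at d4, a log2 fold change of 5.46 ± 0.17 (SE, adjusted p = 3.62e-13). Trh, the thyrotropin-releasing hormone precursor, went from 104, 95.1 and 93.0 TPM to 2989, 3963 and 3506 TPM, a change of 5.14 ± 0.20 (SE, adjusted p = 3.79e-12). For both genes, the d0 and d4 libraries were far apart and the replicates of a day lay close together. Otx2 (ENSMUSG00000021848; chromosome 14, 48657677 to 48673819, minus strand), a homeobox factor of the postimplantation epiblast and the anterior neural plate, had 1.95, 1.10 and 2.53 TPM at d0 and 92.5, 103 and 90.8 TPM at d4, a change of 5.11 ± 0.16 (SE, adjusted p = 2.81e-13). Lefty1, a secreted inhibitor of Nodal, rose from 16.1, 17.1 and 17.2 TPM to 581, 554 and 611 TPM, by 5.03 ± 0.12 (SE, adjusted p = 3.73e-14). The other 6 of the 10 genes with the largest rises changed by 4.97 for Mtap7d3, 4.89 for Fgf15, 4.89 for Cthrc1, 4.82 for Gja1, 4.77 for Krt18 and 4.64 for Vrtn. Of these, Fgf15 is a fibroblast growth factor of the early neural plate, Cthrc1 a secreted collagen triple helix protein, Gja1 the gap junction protein connexin 43 and Krt18 a simple epithelial keratin. Adjusted p of the 10 genes ran from 3.73e-14 to 2.23e-10.

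These 10 genes did not all rise as much in Ctrl. They were picked by their change in KO, so the choice itself favours a larger change there. Gja1 had nearly the same change in both genotypes, with 4.71 in Ctrl and a difference of change, KO minus Ctrl, of 0.11 (95% interval -0.28 to 0.50). Car4, Trh and Lefty1 rose in Ctrl by 3.80, 2.89 and 4.08. Otx2 rose by only 0.60 ± 0.16 (SE, adjusted p = 0.00245) in Ctrl, from 3.89, 3.77 and 4.20 TPM to 6.44, 5.38 and 7.94 TPM, and Fgf15 had a change of 0.70 ± 0.26 (SE, adjusted p = 0.0212) there, which was not called. Vrtn, a regulator of vertebral number that is also expressed in the early embryo, had 58.5 to 78.1 TPM in KO d4 against 3.34 to 5.92 TPM in Ctrl d4.

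The largest falls in KO included targets of the Wnt pathway, which CHIR99021 activates at d0, along with genes of transport and of the early embryo. Gm9376, a predicted protein-coding gene, had 192, 183 and 196 TPM at d0 and 2.31, 1.94 and 2.40 TPM at d4, a change of -5.90 ± 0.27 (SE, adjusted p = 2.58e-11). Cdx1, a homeobox gene induced by Wnt, had 240.4, 224 and 122 TPM at d0 and 4.24, 3.56 and 2.20 TPM at d4, a change of -5.47 ± 0.23 (SE, adjusted p = 7.54e-12). Sp5, a zinc-finger factor and direct target of beta-catenin, had 55.4, 58.1 and 21.3 TPM at d0 and 0.482 to 0.674 TPM at d4, a change of -4.76 ± 0.34 (SE, adjusted p = 3.05e-09). KO d0 replicate 3 was the lowest of its group for both Wnt targets, yet all d0 libraries stood far above all d4 libraries. Aqp3, a water and glycerol channel, had 799, 759 and 779 TPM at d0 and 36.9, 21.2 and 23.9 TPM at d4, a change of -4.82 ± 0.22 (SE, adjusted p = 1.97e-11). The other 6 changed by -4.74 for S1pr1, -4.64 for Gm13580, -4.64 for Crxos, -4.43 for Cd3g, -4.35 for 2310043M15Rik and -4.27 for Slc51a. S1pr1 is a receptor for sphingosine-1-phosphate, Slc51a a subunit of the organic solute transporter, Crxos a homeobox gene expressed in preimplantation embryos, Cd3g a subunit of the T cell receptor complex and 2310043M15Rik a long noncoding RNA. Gm13580 is annotated as an antisense RNA, and because the setting for strand in the counting is not given, its reads cannot be told apart from those of an overlapping gene on the other strand. The pseudogene Gm4222 (-5.03) would have been among the 10 and was left out, since its reads may belong to a copy elsewhere.

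All 10 fell in Ctrl as well, but by less in 8 of them by the test of the difference of change. The 10 were picked by their change in KO, which is part of that difference, so the count is not independent of the choice. Cdx1 changed by -1.62 ± 0.23 (SE, adjusted p = 7.62e-06) in Ctrl, with a difference of change of -3.85 ± 0.32 (SE, adjusted p = 1.66e-07). For Aqp3 the difference was -2.84, for Slc51a -2.80, for Sp5 -2.22 and for Gm9376 -1.95. The differences of Cd3g (-1.03 ± 0.30 SE, adjusted p = 0.00937) and S1pr1 (-1.09) were close to the thresholds, and 2310043M15Rik (-0.86 to 0.48 as 95% interval) and Gm13580 (-2.35 to -0.17) were not called.

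**Figure D2:**
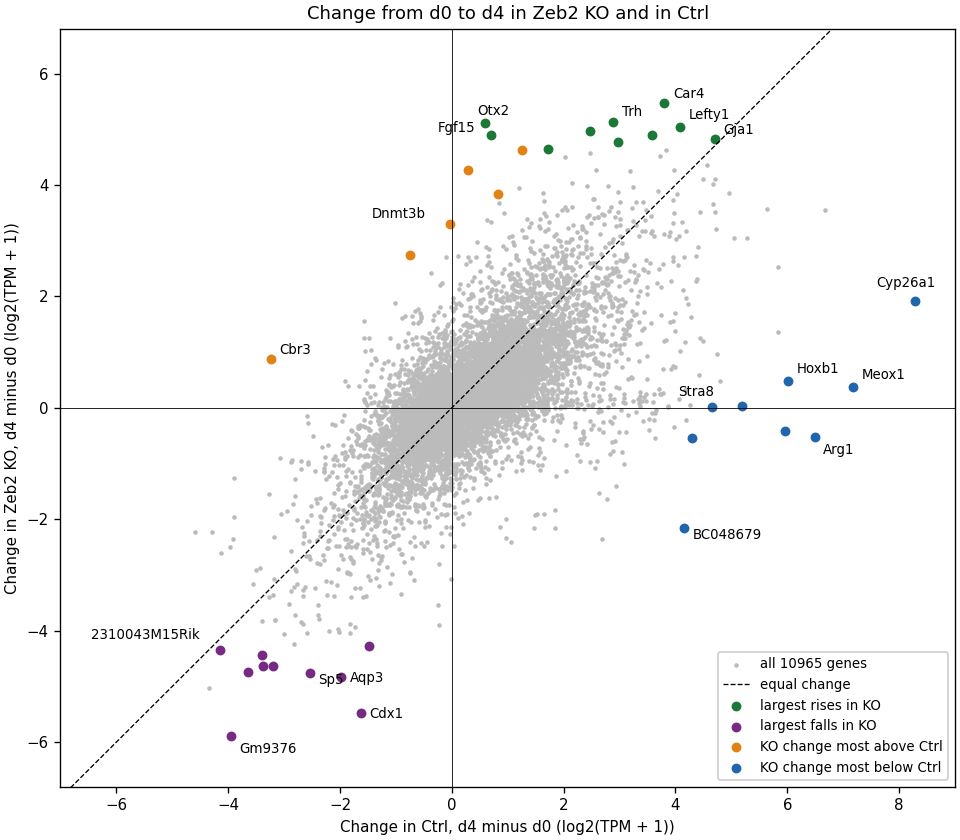
Log2 fold change from d0 to d4 in Zeb2 KO (vertical) against Ctrl (horizontal) for the 10965 genes (grey), with the genes named in the text among the 10 largest rises and falls in KO and the 10 largest differences of change in each direction in colour. Gja1 and 2310043M15Rik lie near the line of equal change, Otx2, Dnmt3b and Cbr3 far above it, and Cyp26a1, Meox1, Arg1 and Hox genes far below it.

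The naive network was taken down in the KO cells. Of 18 naive pluripotency genes, all measured, none rose and 16 fell (88.9%, against 20.9% of all genes), with a median change of -1.09. Tfcp2l1, a transcription factor downstream of LIF, had 699.6, 786 and 622 TPM at d0 and 62.4, 54.6 and 64.3 TPM at d4, a change of -3.52 ± 0.12 (SE, adjusted p = 7.67e-13). Tbx3, a T-box factor, had 89.0, 108 and 91.0 TPM and then 13.2, 10.7 and 14.9 TPM (-2.81). Klf4, a Krüppel-like factor, had 199, 206 and 171 TPM and then 40.2, 28.8 and 36.3 TPM (-2.43). In each of these genes the lowest d0 library lay several times above the highest d4 library. Falls of a middle size were seen for the Krüppel-like factor Klf2 (-1.39), for the germ cell and naive state regulators Dppa3 (-1.78) and Prdm14 (-1.54), for the nuclear receptor Nr5a2 (-1.44) and for the methylcytosine dioxygenase Tet2 (-1.65).

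Core members of the network fell less and stayed abundant. Nanog had 1136, 1136 and 1325 TPM at d0 and 776, 668 and 688 TPM at d4, a change of -0.75 ± 0.12 (SE, adjusted p = 3.17e-05). Esrrb, an orphan nuclear receptor, changed by -0.90, Zfp42 (Rex1) by -0.69 and Nr0b1 (Dax1), which represses naive genes when in excess, by -0.62. At d4 Zfp42 still had 560.5 to 623 TPM and Esrrb 233 to 288 TPM. Fgf4, the main FGF ligand of ESCs, and Mybl2, a regulator of the cell cycle, were the 2 members that were not called, with changes of -0.15 ± 0.13 (SE, adjusted p = 0.326) and 0.01 ± 0.07 (SE, adjusted p = 0.901). Fgf4 had 254, 245 and 294 TPM at d0 and 217, 246 and 249 TPM at d4, with overlapping groups.

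The naive genes changed to much the same degree in Ctrl, where all 18 fell and the median was -1.16. Over all genes, a difference of change of any size was called higher in KO for 13.6% and lower for 22.5%. Of the 18 differences here, 3 were called higher in KO, those of Fgf4 (2.44), Mybl2 (1.04) and Nr0b1 (0.69), and 1 was called lower, that of Tfcp2l1 (-0.60). Fgf4 fell in Ctrl from 307, 308 and 303 TPM to 52.7, 53.4 and 43.9 TPM. For Klf4 the 95% interval of the difference ran from -0.17 to 0.63, for Nanog from -0.08 to 0.63 and for Zfp42 from -0.13 to 0.33. Nanog lies on chromosome 6 and Zfp42 on chromosome 8. The median change of all genes there was 0.60 and 0.66 in Ctrl and 0.16 and 0.13 in KO. The intervals of Nanog and Zfp42 include that offset and do not show an equal fall.

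General pluripotency genes, which are expressed in both the naive and the postimplantation epiblast, moved in both directions in KO, in shares near those of all genes. Of 18 genes, all measured, 7 rose, 3 fell and 8 were not called (38.9% and 16.7% for rises and falls, beside 35.8% and 20.9% of all genes), with a median of 0.20, beside 0.15 over all genes. In Ctrl 4 rose and 10 fell, with a median of -0.36. Pou5f1 (Oct4; ENSMUSG00000024406; chromosome 17, 35506018 to 35510772, plus strand) had 1163, 1047 and 1171 TPM at d0 and 969, 1043 and 1033 TPM at d4 in KO, a change of -0.15 ± 0.10 (SE, adjusted p = 0.215) that was not called. In Ctrl it fell from 1165, 1127 and 1125 TPM to 525, 436 and 397 TPM. The difference of change was 1.19 ± 0.15 (SE, adjusted p = 8.61e-06), and all KO d4 libraries lay above all Ctrl d4 libraries.

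Sox2, its partner factor, had 764, 786 and 807 TPM at d0 and 1023, 803 and 998 TPM at d4, a change of 0.25 ± 0.09 (SE, adjusted p = 0.0231) that was not called. It was called, at 0.36, when KO d4 replicate 2, the lowest of its group, was left out. Lin28a, an RNA-binding protein that blocks let-7 maturation, rose from 38.7, 33.6 and 25.1 TPM to 380.3, 463 and 435 TPM, by 3.69 ± 0.12 (SE, adjusted p = 5.47e-13), and its rise in Ctrl of 3.43 was not called different (95% interval of the difference -0.10 to 0.62). Utf1, a chromatin protein of pluripotent cells, rose by 2.38.

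Foxd3, a forkhead factor of the epiblast and neural crest, had 34.8, 46.6 and 40.6 TPM at d0 and 34.2, 27.5 and 39.3 TPM at d4 in KO (-0.27, not called) and fell to 4.86, 8.96 and 4.64 TPM in Ctrl d4. The Nodal co-receptor Tdgf1 (Cripto) changed by 0.38 in KO (not called) and by -1.08 in Ctrl. Tcea3, a transcription elongation factor, rose by 1.53 in KO and fell by 0.61 in Ctrl. The difference of change was called for each of Foxd3 (2.30), Tdgf1 (1.46) and Tcea3 (2.14). Of the 18 genes, 11 had a difference called higher in KO (61.1%, beside 13.6% of all genes) and none a lower one.

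**Figure D3:**
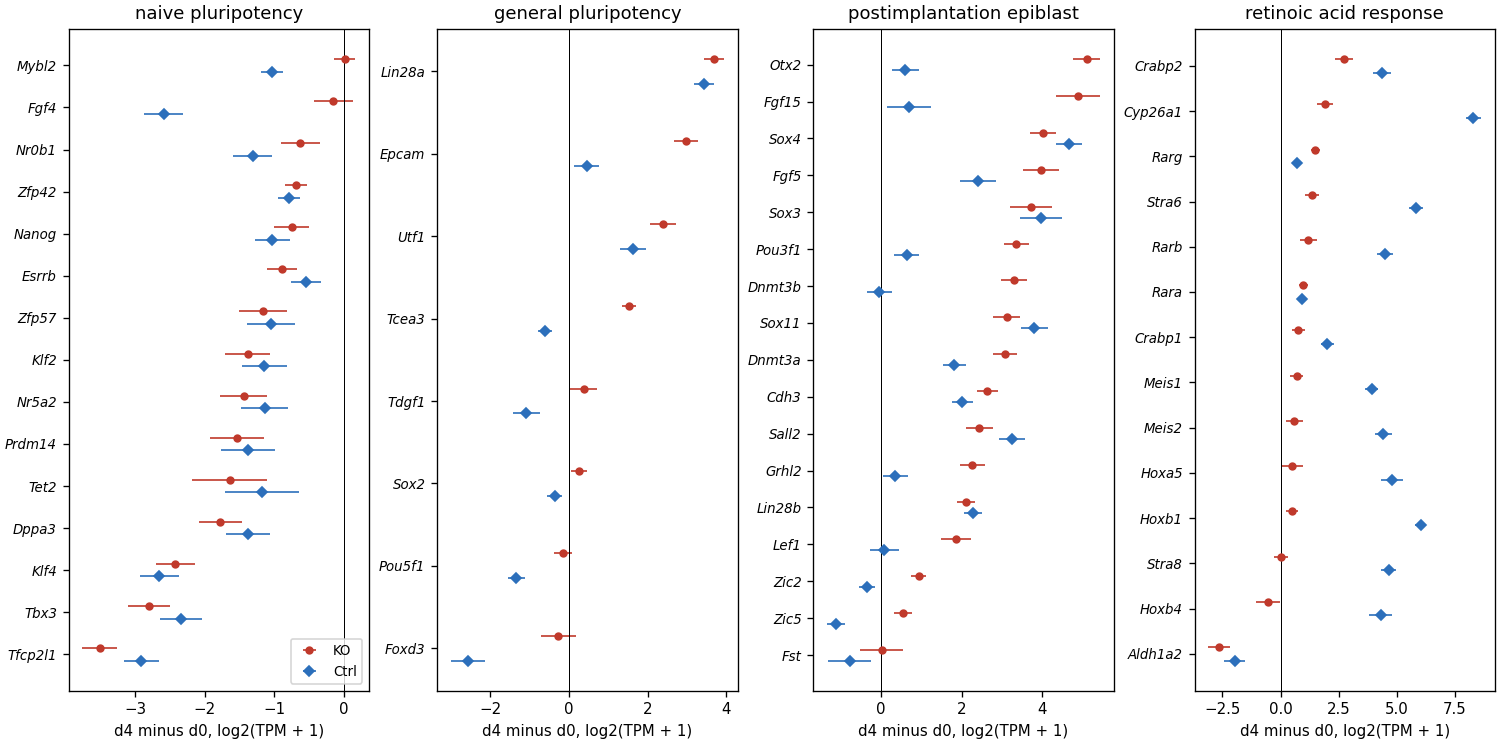
Log2 fold change from d0 to d4 of the members of 4 gene lists that are named in the text in Zeb2 KO (red circles) and Ctrl (blue diamonds), with 95% intervals from limma. The intervals of the naive genes shown lie below 0 in both genotypes except those of Mybl2 and Fgf4 in KO, most general pluripotency and epiblast genes shown lie higher in KO than in Ctrl, and the retinoic acid response genes shown lie lower in KO than in Ctrl except Rarg and Rara.

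The postimplantation epiblast program was switched on. Of 20 genes, 19 were in the table, of which 18 rose (94.7%, against 35.8% of all genes) and none fell, with a median change of 2.63. The absent entry, Oct6, is another name of Pou3f1, which is on the list. A gene that is low at d0 could enter the table only if it was higher in other groups, so the count is not independent of the filter. Fgf5, the classic marker of this stage, had 0.0960, 0.230 and 0.340 TPM at d0 and 16.1, 22.1 and 16.8 TPM at d4, a change of 3.97 ± 0.21 (SE, adjusted p = 9.58e-11). Pou3f1 (Oct6), a POU factor of the epiblast and early neural cells, had 1.55, 1.61 and 1.83 TPM and then 22.3, 26.4 and 31.0 TPM (3.36). No library of d4 came near those of d0 in either gene. Cdh3, P-cadherin, rose by 2.63, Grhl2, a factor of epithelial identity, by 2.27, Lef1, a nuclear partner of beta-catenin, by 1.86, and the zinc-finger factors Zic2 and Zic5 by 0.93 and 0.53. The SoxC genes Sox4 and Sox11 and the SoxB1 gene Sox3 rose by 4.03, 3.12 and 3.72. Fst, follistatin, was the only measured member not called (0.02 ± 0.25 SE, adjusted p = 0.954).

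In Ctrl the same 19 genes had a median change of 0.70, with 11 called up and 4 down, and for 12 of them the change in KO was called higher (63.2%, beside 13.6% of all genes). Besides Otx2, the differences were 2.73 for Pou3f1, 1.91 for Grhl2, 1.78 for Lef1, 1.66 for Zic5, 1.56 for Fgf5 and 1.28 for Zic2. Sox3, Sox4, Sox11 and Lin28b, which blocks let-7 as Lin28a does, were not called different, and Sall2, a zinc-finger factor, was called lower in KO (-0.81). Lef1 also differed at the start, at 0.186 to 0.314 TPM in KO d0 and 2.63 to 3.24 TPM in Ctrl d0.

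Among genes of DNA methylation, the KO cells raised the de novo enzymes and lowered Tet2, Uhrf1 and Zfp57. Dnmt3b (ENSMUSG00000027478; chromosome 2, 153649450 to 153687730, plus strand) had 32.9, 34.9 and 32.5 TPM at d0 and 259.6, 413 and 363 TPM at d4, a change of 3.30 ± 0.15 (SE, adjusted p = 1.76e-11). In Ctrl it had 46.1, 37.1 and 41.4 TPM and then 33.0, 42.5 and 46.4 TPM, a change of -0.04 ± 0.15 (SE, adjusted p = 0.818) that was not called. The other de novo enzyme, Dnmt3a, rose in KO from 4.72, 4.61 and 4.46 TPM to 42.0, 46.6 and 50.3 TPM (3.08), and their cofactor Dnmt3l from 1.99, 1.90 and 2.12 TPM to 61.1, 70.1 and 70.6 TPM (4.51). The rises of both were smaller in Ctrl (1.82 and 2.03), with differences of 1.26 and 2.47. Tet3 rose by 1.37, Tet2 fell as above, and Tet1 had 97.2, 118 and 91.2 TPM at d0 and 104, 94.9 and 105 TPM at d4, a change of 0.00 (95% interval -0.28 to 0.27). Uhrf1, which brings the maintenance enzyme to hemimethylated DNA, fell by 0.57, the same as in Ctrl (-0.57), and the maintenance enzyme Dnmt1 itself was not called (-0.12 ± 0.05 SE, adjusted p = 0.0576). Zfp57, which protects imprints, fell by 1.16. In all, 4 of the 12 measured genes of the list of 14 rose and 3 fell (4 and 6 after median-ratio rescaling), with a median of -0.03.

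Feedback genes of the ERK pathway, which lies downstream of MEK, mostly rose. Of 22 listed genes 19 were measured, of which 14 rose and 4 fell (73.7% and 21.1%, beside 35.8% and 20.9% of all genes), with a median of 0.88 (1.29 in Ctrl). The rises numbered 11 after median-ratio rescaling and after quantile normalization. Dusp4, a phosphatase that acts on ERK, had 19.8 ± 0.240 TPM at d0 and 208, 201 and 232 TPM at d4, a change of 3.37 ± 0.07 (SE, adjusted p = 9.02e-15). Dusp6, the cytoplasmic ERK phosphatase, had 18.2, 26.8 and 22.9 TPM and then 192, 270.3 and 243 TPM (3.32). The inhibitors of receptor signalling Spry1, Spry2, Spry4 and Spred1 rose by 2.39, 0.96, 3.52 and 1.97. The change of Dusp4 was not called different from that in Ctrl, with a difference of -0.09 (95% interval -0.30 to 0.13). Dusp4 lies on chromosome 8, where the median change of all genes was 0.66 in Ctrl and 0.13 in KO. The difference includes that offset.

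Ccnd1, cyclin D1, rose in KO by 1.65 and fell in Ctrl by 0.72, a difference of 2.37 ± 0.19 (SE, adjusted p = 9.05e-08). The ETS factor Etv5 likewise rose in KO by 0.54 and fell in Ctrl by 0.69, while Phlda1 rose more in Ctrl (3.15 against 0.88). The 4 members that fell were the immediate early genes Fos, Egr1, Junb and Dusp1, at -1.89 for Fos, -2.14 for Egr1, -1.19 for Junb and -0.49 for Dusp1. Their d0 libraries were widely spread, with 103, 58.5 and 17.0 TPM for Egr1 and 34.9, 18.5 and 9.41 TPM for Fos, and such genes are known to respond to stimulation within minutes. The call of Egr1 was lost without KO d0 replicate 1 (-1.58) or 2 (-1.99) or KO d4 replicate 1 (-1.97) or 3 (-2.15), and that of Dusp1 without KO d0 replicate 1 (-0.30) or KO d4 replicate 2 (-0.48) or 3 (-0.46).

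Of the FGF ligands and receptors, 15 of 16 were measured, 8 rose and 1 fell (53.3% and 6.67%, beside 35.8% and 20.9% of all genes). The ligands Fgf17 and Fgf8 rose by 3.24 and 2.02 beside Fgf5 and Fgf15, and Fgf10 fell by 2.81, from 7.45 ± 0.390 TPM to 0.209 ± 0.138 TPM. Among the receptors, Fgfr2 rose by 1.21 and Fgfr1 was not called (0.11 ± 0.08 SE, adjusted p = 0.238), while in Ctrl they rose by 2.29 and 1.56. The differences of change were 1.65 for Fgf8, 1.87 for Fgf17, -2.59 for Fgf10, -1.45 for Fgfr1 and -1.07 for Fgfr2.

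Of 15 genes of the LIF and STAT3 pathway 14 were measured, 3 rose and 8 fell (21.4% and 57.1%, beside 35.8% and 20.9% of all genes), with a median of -0.73. The feedback inhibitor Socs3 had 70.9, 68.1 and 76.6 TPM at d0 and 24.8, 19.5 and 24.2 TPM at d4 (-1.62 ± 0.11 SE, adjusted p = 1.67e-09), and Stat3 itself fell by 1.20. Bcl3, a coactivator induced by LIF, fell by 2.97, more than in Ctrl (difference -1.09 ± 0.17 (SE, adjusted p = 8.58e-05)). The receptor genes Lifr (0.17) and Il6st (-0.20) were not called.

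Listed Wnt targets and pathway genes split into those that fell and those that rose. Of 18 listed genes 13 were measured, 6 rose and 5 fell (46.2% and 38.5%, beside 35.8% and 20.9% of all genes), and the median of 0.13 turned to -0.14 after quantile normalization. Besides Cdx1 and Sp5, the feedback genes Axin2 and Notum fell, by 1.93 and 1.92, and the secreted inhibitor Dkk1 by 0.87. Axin2 had 35.6, 41.6 and 22.5 TPM at d0, where replicate 3 was again the lowest, and 7.21, 7.94 and 8.08 TPM at d4. The members that rose were the nuclear factors Lef1 and Tcf7 (0.54), the inhibitors Nkd1 and Nkd2 (1.31 and 1.74), the Wnt carrier Wls (0.94) and Ctnnb1, beta-catenin (0.40). Sp8 was not called in KO (0.13) and rose by 3.40 in Ctrl.

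Of 16 Nodal signalling genes 15 were measured, 8 rose and 2 fell (53.3% and 13.3%, beside 35.8% and 20.9% of all genes), 6 and 3 with median-ratio rescaling, 6 and 2 with quantile normalization, with a median of 0.42. The Smad repressor Skil rose by 1.89 and the transducer Smad3 by 1.25. Lefty2, the second Lefty, rose by 0.50 in KO and was not called in Ctrl (-0.09), without a called difference. Nodal itself had 204, 176 and 205 TPM at d0 and 195, 174 and 194 TPM at d4, without a called change (-0.05 ± 0.09 SE, adjusted p = 0.638), and the convertase Pcsk6 fell by 1.77.

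Of the BMP pathway 12 of 17 genes were measured, 4 rose and 1 fell (33.3% and 8.33%, beside 35.8% and 20.9% of all genes), and 3 and 3 after median-ratio rescaling or quantile normalization. The targets Id1 and Id2, inhibitors of bHLH factors, rose by 2.05 and 2.61, the ligand Bmp4 by 0.77, and Id4 fell by 1.11. The call of Bmp4 stood at the threshold and was lost without any 1 of the 6 KO libraries (0.71 to 0.81). The median of 0.15 equals that of all genes and was -0.05 after quantile normalization. Bmp7 was not called in KO (0.05 ± 0.15 SE, adjusted p = 0.761) and rose by 1.71 in Ctrl.

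Of 18 Notch genes 15 were measured, 11 rose (73.3%, beside 35.8% of all genes) and none fell, with 9 rises after median-ratio rescaling or quantile normalization and a median of 1.13, close to that in Ctrl (1.01). Hes6 had 5.24, 6.05 and 7.50 TPM at d0 and 58.6, 57.2 and 62.8 TPM at d4, a change of 3.07 ± 0.12 (SE, adjusted p = 5.66e-12). The ligands Jag2, Dll3 and Dll1 rose by 2.42, 1.99 and 1.66, the receptor Notch3 by 2.00 and the glycosyltransferase Lfng by 1.51. The target Hes1 was not called (0.10). Jag1 moved apart between the genotypes, with 17.9, 16.9 and 19.4 TPM in KO d4 and 4.83, 6.30 and 4.65 TPM in Ctrl d4, after changes of 0.49 and -1.91 and a difference of 2.40 ± 0.17 (SE, adjusted p = 2.26e-08).

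The genes that respond to RA stood among the widest gaps between the genotypes. Retinoic acid is made from retinol by dehydrogenases, binds nuclear receptors on direct repeats in target promoters, and induces its own degrading enzyme, receptors and the anterior Hox genes. All 20 listed genes were measured. In KO 13 rose and 2 fell (65.0% and 10.0%, beside 35.8% and 20.9% of all genes, and 12 and 2 after median-ratio rescaling, 8 and 4 after quantile normalization), with a median of 0.71, against 18 up and 1 down and a median of 4.15 in Ctrl. The difference of change was called lower in KO for 15 of the 20 (beside 22.5% of all genes). A gene low in every KO library could enter the table only through Ctrl, so this count is not independent of the filter. The same holds for the neural, mesoderm and two-cell-like lists below. The study describes the d4 stage as one of culture with serum. Whether the d4 cells of either genotype were collected before or after the change to medium with RA on d4 is not given.

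Cyp26a1, which degrades RA, and Rarb, an RA receptor, are shown with the 250 bases before their starts. On either strand, a direct repeat of the letters GTTCA and AGTTCA, with 5 bases of any kind between them, was searched. Only these 2 of 7221 tested genes with a RefSeq promoter (0.0277%, build GRCm38.p6) held it. The letters searched are ones that both promoters share, so their rarity elsewhere is not an independent result. No other motif searched here overlaps the repeat. Capitals mark the match, which begins 32 bases before the start of Cyp26a1 (chr19:37697558-37697807, plus strand) and 53 bases before that of Rarb (chr14:16575477-16575726, minus strand).
Cyp26a1: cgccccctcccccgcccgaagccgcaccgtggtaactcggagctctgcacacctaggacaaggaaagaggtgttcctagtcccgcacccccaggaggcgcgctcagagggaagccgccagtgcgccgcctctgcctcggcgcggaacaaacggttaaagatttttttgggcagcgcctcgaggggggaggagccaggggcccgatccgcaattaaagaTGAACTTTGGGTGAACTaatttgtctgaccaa
Rarb: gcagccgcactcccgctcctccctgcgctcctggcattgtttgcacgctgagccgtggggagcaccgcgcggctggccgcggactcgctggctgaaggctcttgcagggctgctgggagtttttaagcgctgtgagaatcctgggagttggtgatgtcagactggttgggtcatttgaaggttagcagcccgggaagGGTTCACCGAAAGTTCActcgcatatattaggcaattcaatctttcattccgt
The match of Cyp26a1 reads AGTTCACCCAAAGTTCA on the other strand. A match of letters is a description of these windows and does not show that a receptor binds there.

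Cyp26a1 had 1.01, 0.403 and 0.992 TPM in KO d0 and 5.70, 4.79 and 6.71 TPM in KO d4, a rise of 1.91 ± 0.16 (SE, adjusted p = 2.48e-08). In Ctrl it went from 0.674, 0.481 and 0.714 TPM to 448, 476 and 604 TPM, a rise of 8.29 ± 0.16 (SE, adjusted p = 1.68e-15). The KO cells thus raised the gene, to a level far below that of Ctrl. Rarb had 0.785, 1.80 and 1.28 TPM and then 3.56, 5.13 and 3.92 TPM in KO (1.20), and 53.2, 61.1 and 61.5 TPM in Ctrl d4 (4.49). The retinol transporter gene Stra6 reached 2.12 to 2.96 TPM in KO and 59.6 to 85.0 TPM in Ctrl.

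Hox genes and their Meis partners were far apart between the genotypes. Hoxb1, an anterior Hox gene and direct RA target, rose slightly in KO, to 0.588, 0.691 and 0.488 TPM (0.47 ± 0.12 SE, adjusted p = 0.00245), and reached 72.2, 77.8 and 81.8 TPM in Ctrl d4. The call of Hoxb1 in KO was lost when KO d0 replicate 1 or 2 or KO d4 replicate 2 was left out (0.43 to 0.45). Hoxa5 and Hoxb4 were not called in KO (0.48 and -0.54), and the Hox partners Meis1 and Meis2 rose by 0.70 and 0.59 in KO, against 3.91 and 4.41 in Ctrl. The rise of Meis2 turned to -0.058 after quantile normalization and was not called without KO d0 replicate 1 (0.52) or 2 (0.62) or KO d4 replicate 2 (0.47). That of Meis1 was not called after quantile normalization (0.10) or with a pseudocount of 5 (0.21). Stra8, an RA-induced gene of meiosis, had 6.17, 4.01 and 4.57 TPM in KO d4 and 238, 210.4 and 277 TPM in Ctrl d4.

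Other members of the RA list moved in KO as well. The binding proteins Crabp2 and Crabp1 rose by 2.73 and 0.75 and the receptors Rarg and Rara by 1.49 and 0.98. Rarg rose more in KO than in Ctrl (0.77), the only member to do so, and Rara was not called different (-0.21 to 0.33 as 95% interval of the difference). Aldh1a2, which makes RA, fell by 2.64 in KO, from 20.5 to 27.6 TPM to 2.63 to 3.25 TPM, and by 1.98 in Ctrl. Its difference of change was not called.

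Among early neural genes, Sox1 and Pax6 rose in KO, and most members of the list changed less upward than in Ctrl. Of 20 neural genes 18 were measured, 8 rose and 2 fell (44.4% and 11.1%, beside 35.8% and 20.9% of all genes, and 4 and 4 after quantile normalization; Hoxb1 is on this list too), with a median of 0.26 against 1.00 in Ctrl. Sox1, the earliest marker of the neural plate, had 4.81, 6.84 and 4.95 TPM in KO d0 and 66.6, 72.9 and 79.8 TPM in KO d4 (3.51 ± 0.16 SE, adjusted p = 2.43e-11), and 92.0 to 122 TPM in Ctrl d4. Pax6, a paired box factor, had 0.676, 0.824 and 1.33 TPM and then 7.51, 8.25 and 7.11 TPM in KO (2.16) and 17.6, 16.4 and 17.7 TPM in Ctrl d4. Irx3, a homeobox gene, rose by 1.86 in KO and 4.23 in Ctrl. The neuronal and patterning genes Dcx, Pax3, Pax7 and Neurog1 stayed under 2 TPM in every KO library of d0 and d4. The adhesion molecule Ncam1 fell by 1.15 in KO and was not called in Ctrl (-0.09). The difference of change was called lower in KO for 12 of the 18 genes (66.7%, beside 22.5% of all genes) and higher for Tubb3 (0.87).

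Mesoderm genes were mostly low. Of 20 genes of the primitive streak and mesoderm 10 were in the table, and Brachyury and Mixl1 were not analysed here. Of the 10, 3 rose and 2 fell (beside 35.8% and 20.9% of all genes, and none and 4 after quantile normalization). Gsc, goosecoid, had 25.4, 21.8 and 23.3 TPM at d0 and 2.13, 2.01 and 1.38 TPM at d4 (-3.12 ± 0.26 SE, adjusted p = 1.98e-08), and Eomes fell by 0.72, a call that was lost without any 1 of the KO libraries (-0.75 to -0.65) other than KO d4 replicate 2. The mesoderm factors Foxc1 and Tcf15 rose by 1.19 and 1.35, and were not called after quantile normalization (0.52 and 0.65). Meox1, a homeobox gene of somites, stayed at 0.605 to 1.26 TPM in KO d4, against 185 to 229 TPM in Ctrl d4.

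Of 21 endoderm genes 19 were measured, and 8 rose and 2 fell (42.1% and 10.5%, beside 35.8% and 20.9% of all genes, and 5 and 3 after quantile normalization). The largest rises were those of basement membrane genes on the list, Col4a1 (3.17), Col4a2 (2.59) and Lamb1 (2.52), which other cell types also make. Foxa1 reached 3.95 to 6.13 TPM (2.12), while the defining factors Gata4, Gata6 and Foxa2 were not called and stayed under 6 TPM. Without KO d4 replicate 2, Gata4 was called (0.71). Of 13 trophectoderm genes 10 were measured, 4 rose and 4 fell (40.0% and 40.0%, beside 35.8% and 20.9% of all genes). The keratins Krt18, Krt19 and Krt8 rose, the last 2 by 1.98 and 1.77, and the regulators Gata2, Tfap2c, Tfap2a and Tead4 fell, Gata2 by 2.39 and Tfap2c by 1.03. Of the regulators on both lists, Foxa1, Sox7 (1.00) and Ascl2 (1.17) rose. The call of Ascl2 was lost without KO d0 replicate 3 (1.08) or KO d4 replicate 2 (1.10) or 3 (0.98), and that of Tead4 without any 1 KO library (-0.51 to -0.43).

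Two-cell-like genes, which mark rare cells that resemble the embryo at the time of genome activation, rose in Ctrl and not in KO. Of 21 genes 13 were measured. In KO none rose, beside 35.8% of all genes, and the median was -0.54. The 3 that fell were Pramel7, Pramel6 and Eif1a (23.1%, near the 20.9% of all genes). In Ctrl 10 rose and 3 fell (76.9% and 23.1%, beside 45.1% and 22.3% of all genes), with a median of 2.88. Zscan4d had 6.98, 9.17 and 14.4 TPM in KO d0 and 7.72, 6.88 and 10.5 TPM in KO d4 (-0.22 ± 0.33 SE, adjusted p = 0.570), and went from 3.60, 3.97 and 3.36 TPM to 59.3, 42.3 and 69.0 TPM in Ctrl. The Zscan4, Tcstv and Pramel genes have near-identical copies, and reads of 36 bp cannot always be assigned among them, so that single values are uncertain. Of the Pramel genes, Pramel7 and Pramel6, which are tied to naive pluripotency, fell by 3.09 and 2.49.

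Most imprinted genes rose, in most cases by less than in Ctrl. Of 28 genes 21 were measured, 16 rose (76.2%, against 35.8% of all genes) and 1 fell, with a median of 1.12 against 2.53 in Ctrl, and the difference was called lower in KO for 15 (71.4%, beside 22.5% of all genes). H19, a noncoding RNA expressed from the maternal allele, had 0.471, 0.418 and 0.371 TPM at d0 and 11.4, 13.6 and 12.1 TPM at d4 (3.23 ± 0.12 SE, adjusted p = 2.65e-12). Its partner Igf2, a growth factor expressed from the paternal allele, rose by 1.38 in KO and 4.00 in Ctrl. Mest, Cdkn1c and Meg3 rose by 2.70, 2.17 and 1.21 in KO. Peg3, a zinc-finger gene, had 31.6 to 33.4 TPM in KO d4 and 206 to 219.7 TPM in Ctrl d4. The growth regulator Plagl1 was the 1 that fell, from 38.8, 46.3 and 37.3 TPM to 1.75, 2.61 and 2.14 TPM (-3.72 ± 0.15 SE, adjusted p = 6.63e-12).

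Of 33 germline genes 28 were measured, 14 rose and 9 fell (50.0% and 32.1%, beside 35.8% and 20.9% of all genes, and 8 and 11 after quantile normalization). Those that rose included the synaptonemal complex gene Sycp3 (2.45), the RNA helicase gene Ddx4 (2.15) and the piRNA pathway genes Mael (2.01) and Tdrd1 (2.32). The homeobox genes Rhox6 and Rhox9 fell by 3.54 and 3.08 in KO and were not called in Ctrl (-0.24 and -0.02), with differences of -3.29 and -3.06. Rhox6 had 3.00, 2.52 and 3.12 TPM in KO d4 and 59.4, 41.5 and 41.9 TPM in Ctrl d4, and the 2 genes may share reads. Rhox5 fell less in KO (-0.95) than in Ctrl (-2.69).

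Epithelial genes moved in both directions. Of 20 genes of epithelial adhesion 19 were measured, 9 rose and 7 fell (47.4% and 36.8%, beside 35.8% and 20.9% of all genes), and the median of 0.13 was -0.04 after median-ratio rescaling. Cdh1, E-cadherin, had 724, 691 and 654 TPM at d0 and 456, 523 and 478 TPM at d4 in KO, a change of -0.51 ± 0.08 (SE, adjusted p = 2.01e-05). It changed by -0.38 in Ctrl, and the difference was not called (95% interval -0.36 to 0.10). Cdh1 lies on chromosome 8, where the median change of all genes was 0.66 in Ctrl and 0.13 in KO. The comparison with Ctrl includes that offset and does not show an equal fall. Epcam (ENSMUSG00000045394; chromosome 17, 87635979 to 87651129, plus strand), an adhesion molecule of epithelia and pluripotent cells, rose from 32.3, 31.5 and 20.3 TPM to 194, 247 and 231 TPM in KO, by 2.98 ± 0.15 (SE, adjusted p = 4.57e-11). In Ctrl it had 62.8, 71.6 and 53.7 TPM and then 82.1, 93.2 and 81.1 TPM, a change of 0.45 ± 0.15 (SE, adjusted p = 0.0107) that was not called, so that KO began below Ctrl and ended above it. The difference of change was 2.53 ± 0.21 (SE, adjusted p = 1.26e-07).

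The members of this list that rose included a splicing factor and several tight junction genes, and others fell. The splicing factor Esrp1 had 0.270, 0.345 and 0.191 TPM at d0 and 24.7, 34.4 and 32.2 TPM at d4, a change of 4.62 ± 0.13 (SE, adjusted p = 1.04e-13). The claudins Cldn6 and Cldn7 rose by 3.70 and 3.02, cingulin (Cgn) by 3.00, occludin (Ocln) by 1.25 and tricellulin (Marveld2) by 1.85. All 6 rose in Ctrl too. Claudin 4 (Cldn4) fell by 0.71 and Grhl3 by 1.41. Desmoplakin (Dsp) fell in KO from 78.7, 80.5 and 75.1 TPM to 18.4, 16.9 and 15.1 TPM (-2.16) and rose in Ctrl from 52.5, 60.4 and 63.5 TPM to 155, 149 and 191 TPM (1.47), a difference of -3.62 ± 0.15 (SE, adjusted p = 1.52e-10).

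Mesenchymal genes did not rise as a group in KO. Of 16 genes 13 were measured, 4 rose and 4 fell (30.8% and 30.8%, beside 35.8% and 20.9% of all genes), with a median of 0.16 (-0.07 after quantile normalization) against 0.94 in Ctrl. The matrix protease Mmp2 had 6.47, 5.25 and 5.33 TPM at d0 and 89.8, 105 and 95.5 TPM at d4 (3.87 ± 0.10 SE, adjusted p = 4.29e-14), and Tagln and Twist1 rose by 3.00 and 1.99. N-cadherin (Cdh2) reached 2.90, 2.85 and 2.51 TPM in KO d4 (0.64, or -0.067 after quantile normalization) and 22.5, 24.7 and 25.3 TPM in Ctrl d4 (2.76). The difference of change was -2.12 ± 0.15 (SE, adjusted p = 2.33e-08). Snai1 and Snai2, which also repress Cdh1, were not called in KO (-0.85 and 0.16) and rose by 1.54 and 1.58 in Ctrl. Snai1 was called lower in KO without KO d4 replicate 1 (-1.05) or 2. Zeb1, the paralogue of Zeb2, fell in KO by 0.61 and had a change of 0.37 in Ctrl that was not called. Vim, vimentin, and Fn1, fibronectin, fell by 0.89 and 0.77 in KO.

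The letters CACCTG, an E-box of the type that Zeb2 binds, were searched on both strands of the 250 bases before the start of each gene. They occurred in 16.0% of the 7221 tested genes with a promoter, in 20.7% of those that rose in KO by over 1 and in 20.1% of those that fell by over 1. They occurred in 21.8% of the promoters whose genes changed more upward in KO and 19.5% of those whose genes changed more downward. By list, they occurred in 5 of 13 promoters of naive genes (38.5%) and 6 of 14 of epithelial adhesion genes (42.9%). The shares were 1 of 14 for general pluripotency genes (7.14%), 1 of 11 for epiblast genes (9.09%) and 1 of 15 for RA response genes (6.67%). Epcam (chr17:87635729-87635978, plus strand) and Pim2 (chrX:7878056-7878305, plus strand), a serine/threonine kinase gene, are shown, since each holds 2 such boxes, in capitals, and had a rise that was called in KO and not in Ctrl. For Epcam, all Ctrl d4 libraries still lay above all Ctrl d0 libraries. Both genes were chosen after the matches were seen.
Epcam: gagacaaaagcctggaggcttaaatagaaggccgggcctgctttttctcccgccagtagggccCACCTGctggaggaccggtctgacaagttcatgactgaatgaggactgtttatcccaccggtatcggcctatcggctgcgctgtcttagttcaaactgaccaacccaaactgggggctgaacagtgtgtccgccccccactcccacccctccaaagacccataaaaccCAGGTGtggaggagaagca
Pim2: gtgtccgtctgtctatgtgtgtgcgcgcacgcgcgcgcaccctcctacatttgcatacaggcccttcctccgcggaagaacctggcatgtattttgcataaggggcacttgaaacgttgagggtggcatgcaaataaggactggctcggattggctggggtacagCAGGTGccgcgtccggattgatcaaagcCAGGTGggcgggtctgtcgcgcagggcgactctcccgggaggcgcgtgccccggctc
CAGGTG is the same box read on the other strand. The boxes begin 187 and 19 bases before the start of Epcam and 85 and 57 bases before that of Pim2. The data here do not show binding. Pim2 had 6.07, 5.88 and 4.42 TPM in KO d0 and 24.7, 66.2 and 45.3 TPM in KO d4, so that the 3 d4 libraries were widely spread but all above those of d0, and 6.58, 7.37 and 7.48 TPM in Ctrl d4.

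Of 26 genes of the extracellular matrix and its receptors 24 were measured, 12 rose and 8 fell (50.0% and 33.3%, beside 35.8% and 20.9% of all genes). Beside the type IV collagens and Lamb1, thrombospondin 1 (Thbs1) rose by 2.20 and the integrins Itga3, Itgb1 and Itga6 by 1.32, 1.16 and 0.70. Nidogen 1 (Nid1) had 238, 246 and 241 TPM at d0 and 88.1, 75.5 and 87.8 TPM at d4 (-1.52), laminin alpha 1 (Lama1) fell by 2.11, and Sparc, a matrix-binding glycoprotein, fell by 1.97.

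Genes of lipid synthesis fell. Of 24 genes of cholesterol synthesis and uptake 22 were measured, 19 fell (86.4%, against 20.9% of all genes) and 1 rose, with a median of -0.79. Squalene epoxidase (Sqle) had 66.4, 64.5 and 61.2 TPM at d0 and 39.9, 45.1 and 44.2 TPM at d4 (-0.56 ± 0.07 SE, adjusted p = 4.55e-06), and the transcriptional regulator Srebf2 fell by 0.88. Of 13 genes of fatty acid synthesis 12 were measured and 11 fell, with a median of -0.79. The desaturase Scd1 had 469, 493 and 469 TPM at d0 and 40.1, 50.9 and 43.6 TPM at d4 (-3.39 ± 0.12 SE, adjusted p = 2.16e-12), Scd2 fell by 2.07, Srebf1 by 1.52 and fatty acid synthase (Fasn) by 0.95. The d0 medium lacked serum and the d4 medium held it, so that the loss of the inhibitors and the gain of serum lipids cannot be told apart. In Ctrl these lists had medians of -0.55 and -0.57, and Scd1 fell less there (-1.79 as difference).

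Glycolytic genes rose, with 15 of 22 measured genes of 24 up (68.2%, against 35.8% of all genes) and 3 down. The lactate exporter Slc16a3 had 7.95, 1.59 and 5.16 TPM at d0 and 58.9, 80.0 and 71.2 TPM at d4 (3.75 ± 0.30 SE, adjusted p = 1.35e-08), and the kinase Pdk1, which diverts pyruvate from the mitochondria, rose by 2.97. The glucose transporter Slc2a1 rose by 1.65, phosphofructokinase Pfkl by 2.27 and Ldha by 0.77, while the hexokinases Hk1 and Hk2 fell by 1.39 and 0.60. KO d0 replicate 2 was the lowest d0 library for Slc16a3 and for the hypoxia-induced Bnip3 (3.07, 0.613 and 2.72 TPM). Slc2a1 and Slc2a3 rose more in Ctrl, the latter by 1.09 against 0.04 in KO, where it was not called.

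Genes of serine and one-carbon metabolism fell in 10 of 15 measured cases of 17 (66.7%, beside 20.9% of all genes) and rose in 4, with a median of -0.54. Tdh, the threonine dehydrogenase on which mouse ESCs depend, had 480.4, 494 and 509.5 TPM at d0 and 108, 92.7 and 114 TPM at d4 in KO (-2.23 ± 0.14 SE, adjusted p = 6.35e-10), and fell further in Ctrl, to 22.0 ± 4.65 TPM. The difference was 2.36 ± 0.19 (SE, adjusted p = 1.45e-07). Gldc, the glycine decarboxylase, rose in KO from 51.9, 53.2 and 48.2 TPM to 177, 198 and 195 TPM (1.87) and fell in Ctrl from 198, 189 and 183 TPM to 82.0, 101 and 98.3 TPM, with KO below Ctrl at d0. Asparagine synthetase (Asns) had 1219 to 1271 TPM at d0 and 313 to 332 TPM at d4 (-1.94), with a like change in Ctrl (-2.11).

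Metallothioneins and antioxidant genes moved in both directions. Mt1 and Mt2, which bind zinc and cadmium, fell by 2.09 and 2.27. Mt2 had 7068, 7697 and 7384 TPM at d0 and 1507, 1480.1 and 1610.3 TPM at d4. The glutathione synthesis genes Gclm and Gclc and the thioredoxin reductase Txnrd1 rose by 1.44, 0.97 and 1.28. Gclm had 105, 116 and 109 TPM in KO d4 and 41.7, 40.2 and 34.7 TPM in Ctrl d4, where its change was -0.27, a difference of 1.71 ± 0.10 (SE, adjusted p = 2.80e-09). Glutathione synthetase (Gss) fell in both genotypes (-2.89 and -2.80). Of the 19 measured genes of 20, 8 rose and 7 fell (42.1% and 36.8%, beside 35.8% and 20.9% of all genes, and 6 and 9 after median-ratio rescaling), and 11 had a difference called higher in KO (57.9%, beside 13.6% of all genes).

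Of 17 targets of p53 15 were measured, 7 rose and 4 fell in KO (46.7% and 26.7%, beside 35.8% and 20.9% of all genes, and 4 and 6 after median-ratio rescaling). In Ctrl 2 rose and 8 fell, and 11 of the 15 differences were called higher in KO (73.3%, beside 13.6% of all genes). Cdkn1a (p21) changed by -0.55 in KO and -1.30 in Ctrl. Mdm2 was not called in KO (0.18) and fell by 0.71 in Ctrl. Among 22 measured genes of 27 of the cell cycle, 10 rose and 7 fell (45.5% and 31.8%, beside 35.8% and 20.9% of all genes, and 8 and 9 after rescaling). Ccnd2, cyclin D2, had 0.164, 0.188 and 0.278 TPM at d0 and 10.6, 17.1 and 12.3 TPM at d4 (3.54 ± 0.24 SE, adjusted p = 1.87e-09) in KO, and 147, 152 and 216 TPM in Ctrl d4. Cyclin D3 (Ccnd3) fell by 1.63 and Cdk2 by 1.07, and Cdk1 (0.05) and Cdk4 (-0.05) were not called. Of 15 measured chaperone and stress genes of 19, 4 rose and 5 fell (26.7% and 33.3%, beside 35.8% and 20.9% of all genes), the largest fall being that of Bag3 (-1.14).

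**Figure D4:**
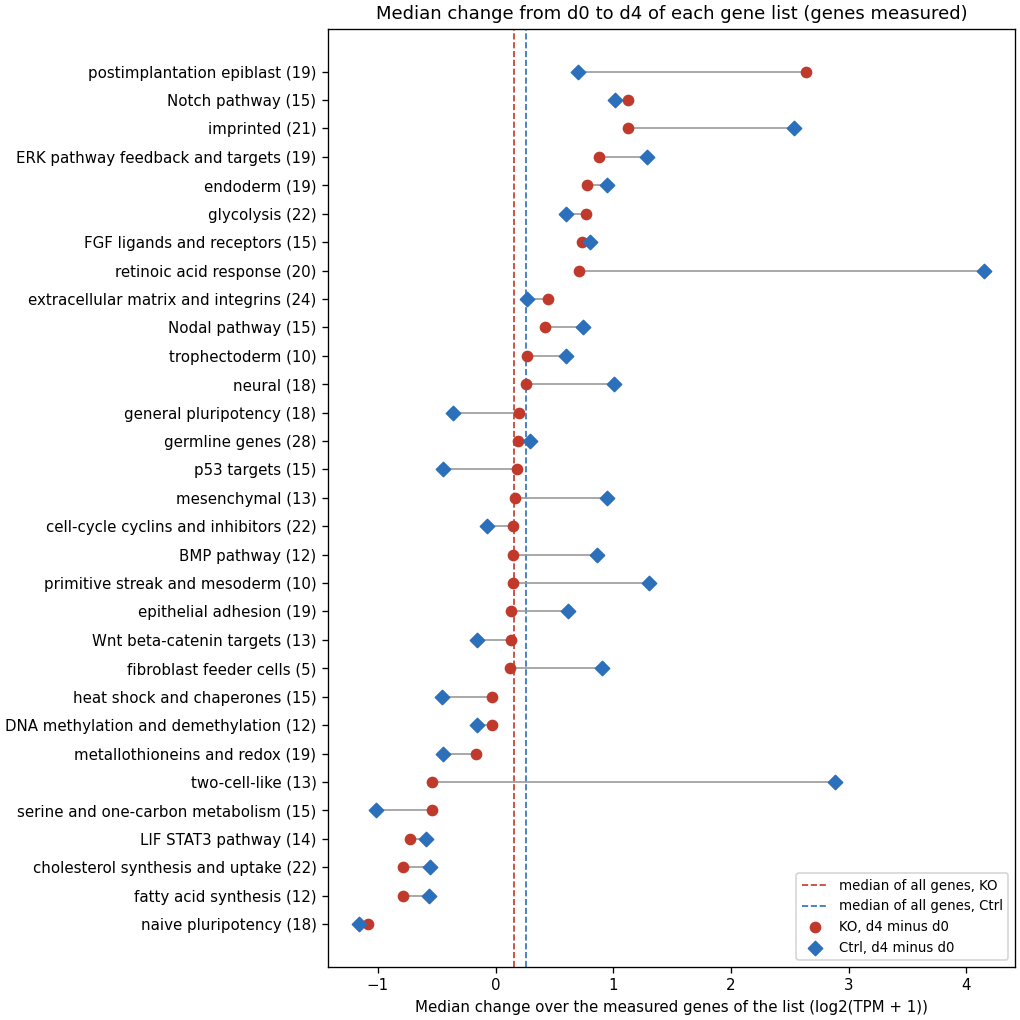
Median log2 fold change from d0 to d4 over the measured genes of 31 lists (number of genes in brackets) in Zeb2 KO (red circles) and Ctrl (blue diamonds), with the medians of all genes as dashed lines. Epiblast genes have the highest KO median (2.63) and naive genes the lowest (-1.09), and the lists of RA response, two-cell-like and epiblast genes show the widest gaps between KO and Ctrl.

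Across all genes, the change of KO from d0 to d4 resembled that of Ctrl, with Pearson's r of 0.689 over the 10965 genes, which are not independent replicates, and the same sign in 76.0%. The 2 comparisons share no library. Of the 1646 genes that rose by over 1 in KO, 1183 (71.9%) also did so in Ctrl, where they were 50.8% of the 2330. Of the 778 that fell by over 1 in KO, 411 (52.8%) also did so in Ctrl, 58.1% of the 707. Genes with opposite changes over 1 were few, 5 that rose in KO and fell in Ctrl and 16 the other way. By the test of the difference of change, 490 genes (4.47%) changed more upward in KO and 979 (8.93%) more downward, at an adjusted p below 0.01 and a difference over 1. The split moved to 638 and 791 with median-ratio rescaling, and to 648 and 684 with quantile normalization.

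Of the 1646 rises in KO, 461 exceeded and 225 (13.7%) fell short of the change in Ctrl, at an adjusted p below 0.01 and any size, and 960 (58.3%) were not called different. These rises were picked by their size in KO, so the choice favours those that exceed Ctrl. For 138 of the rises and 71 of the falls the 95% interval of the difference lay within 0.5 of 0. In the TPM as deposited, these changes were alike within that bound. The 10 largest of these were led by Sema3e, a guidance molecule, at 3.43 in KO and 3.56 in Ctrl, followed by 3.37 for Dusp4, 3.09 for Aff3, 2.97 for Smo, 2.96 for Foxp1, -2.89 for Gss, 2.60 for Gpsm1, 2.53 for Grb7, -2.51 for Nfatc2ip and 2.28 for Arhgef25 in KO. Dusp4 lies on chromosome 8 and Smo and Foxp1 on chromosome 6, where the difference includes the offset of Ctrl given below. For these genes the interval does not show an equal change. Smo, the Hedgehog signal transducer, had 4.84, 4.74 and 5.88 TPM at d0 and 40.2, 51.1 and 50.8 TPM at d4 in KO, and 2.87 as its change in Ctrl. Nfatc2ip, abundant at d0 (457 to 483 TPM), fell to 77.5 to 88.1 TPM. Conversely, 565 genes (24.2%) of those that rose by over 1 in Ctrl and 141 (19.9%) of those that fell by over 1 were not called in KO.

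The largest excess of the KO change over that of Ctrl was seen for Otx2 and Fgf15, followed by Cbr3 (4.11), a carbonyl reductase, with 205, 217 and 205 TPM in KO d4 and 7.14, 7.99 and 8.09 TPM in Ctrl d4. Enpp2 (autotaxin), which makes lysophosphatidic acid, went from 0.0605 to 0.145 TPM to 16.7 to 22.2 TPM in KO (4.27) and was not called in Ctrl (0.29). The hyaluronan synthase Has2 had 23.5 to 34.5 TPM in KO d4 and 1.33 to 1.83 TPM in Ctrl d4. Pim2, Dnmt3b and Glyatl3 (3.83 in KO) are also among the 10.

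The largest shortfall was that of Arg1, arginase 1, with 0.228, 0.767 and 0.474 TPM in KO d4 (-0.53 ± 0.24 SE, adjusted p = 0.0609) and 109, 112 and 111 TPM in Ctrl d4 (6.49). Meox1, Cyp26a1, Hoxb1, Hoxb4 and Stra8 are among the 10 and are described above. Zfp703 was not called in KO (-0.41) and rose to 109 to 162 TPM in Ctrl, and Hoxb8 stayed under 1 TPM in every KO library of d0 and d4. BC048679 fell in KO by 2.15 and rose in Ctrl by 4.16.

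Differences of change also followed chromosomes. In KO the median change of the genes of a chromosome ran from 0.04 (chromosome 11) to 0.34 (X). In Ctrl it was 0.60 on chromosome 6, 0.66 on chromosome 8 and 0.73 on chromosome 12, with the other chromosomes at -0.03 to 0.43, and the median difference of change was -0.34, -0.52 and -0.49 on these 3. Of the genes of chromosomes 6, 8 and 12, 16.4%, 15.3% and 20.2% had a difference below -1, against 8.93% of all genes. On chromosome 17, where Pou5f1 and Epcam lie, 11.1% of the genes had a difference above 1, against 4.47% of all genes. The KO medians show no such offset, but a difference of change of a gene on these chromosomes, called or not, includes the offset of Ctrl. Examples are Stra8, Zfp703, Meg3, Cdh1, Nanog, Zfp42, Dusp4, Smo and Foxp1. When the median deviation of each chromosome was removed from each library, 608 genes had a difference over 1 and 751 one below -1. The cause of these offsets was not tested.

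**Figure D5:**
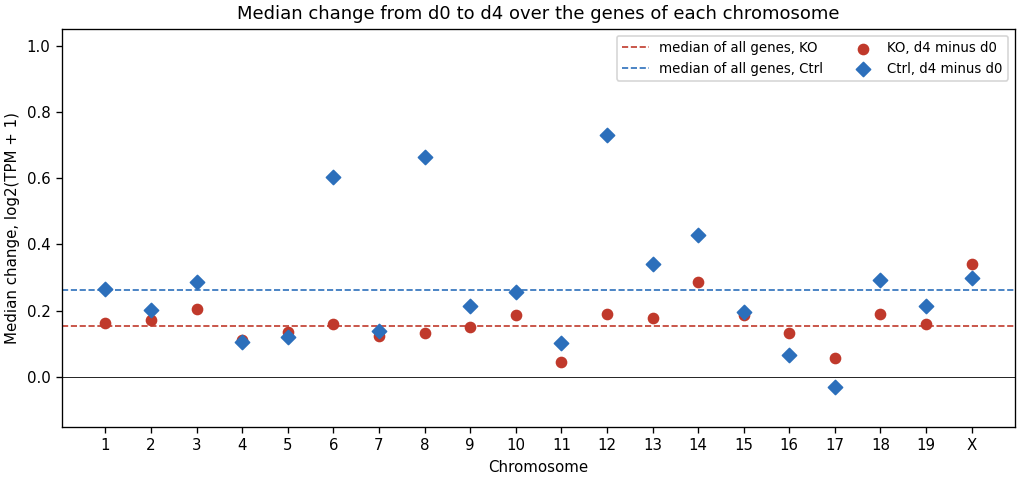
Median log2 fold change from d0 to d4 over the genes of each chromosome in Zeb2 KO (red circles) and Ctrl (blue diamonds), with the medians of all genes as dashed lines. KO stays between 0.04 and 0.34 on every chromosome, and Ctrl stands at 0.60 to 0.73 on chromosomes 6, 8 and 12.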

How the data were processed

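RNA-seq was performed on Zeb2 KO and Ctrl cells at d0, d4 and d6, with 3 libraries per group and single reads of 36 bp. Per the labels and the methods of the study, the authors used TopHat2 2.0.13 for mapping on GRCm38 and featureCounts 1.4.6 for counts per gene, and deposited TPM (counts divided by gene length and scaled to a fixed library total) for genes with at least 5 TPM in 3 or more samples, after removing short noncoding RNAs and the 20% least variable genes. Whether counting used the strand is not given in the sources used here. Columns of gene variance in the table were not used.

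Of 11046 rows, 81 repeated identifiers were left out, and 10965 genes remained, 10922 with a position in GENCODE M21. The reads behind the TPM were recovered as whole numbers for all 10965 genes (largest deviation 1.18e-07, tolerance 1e-06) and gave the depth. The deposited values hold 1 read added to every count, and this read was taken off. For 587 genes at least 1 library had 0 reads and yet a TPM above 0. limma 3.58.1 in R 4.3.3 was fitted to log2(TPM + 1) of all 18 samples with 6 group means and a mean-variance trend. A pseudocount of 1 understates the changes of low genes. The contrasts were d4 minus d0 in KO, the same in Ctrl, and their difference. P-values were adjusted by the Benjamini-Hochberg method over all genes. They weigh a change against the spread between replicates, which was estimated from all 18 samples. As the sequenced line or clone is not given, they cannot be taken to cover the spread between KO lines. The procedure was tested on simulated data.

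Named genes were Zeb2, members of 33 lists, the 10 largest changes in each direction in KO, the 10 largest differences of change in each direction, and the 10 largest changes whose interval of the difference lay within 0.5. The pseudogene Gm4222 was left out by this rule, and some other genes that it takes in are not reported here. Eif1a, Thy1 and other list members were named after their values were seen. The comparison, members and lists were chosen with earlier results of these data known. Alternatives were pseudocounts of 0.1 and 5, a mean of at least 10 TPM, median-ratio rescaling, quantile normalization, removal of chromosome medians, eBayes without trend, the samples of the contrast only, voom on the recovered reads, the replicate number as a block, and leaving out each library. Promoters were the 250 bases before the RefSeq start, found for 7221 genes.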

Additional observations from a re-analysis of the deposited data

Results flagged for a closer look

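The change from d0 to d4 differed between Zeb2 KO and Ctrl by more than 1 on the log2 scale, by the limma test of the difference of change at an adjusted p below 0.01, for 490 genes that moved more upward in KO and 979 that moved more downward. Of the genes named in the report, 48 were among the former and 65 among the latter, and each is given with its difference of change, KO minus Ctrl. The differences that are higher in KO come first. Among genes of the pluripotent and early epiblast states, the difference was 4.50 for Otx2, 3.34 for Dnmt3b, 2.47 for Dnmt3l, 1.26 for Dnmt3a, 2.73 for Pou3f1, 1.91 for Grhl2, 1.78 for Lef1, 1.66 for Zic5 and 1.28 for Zic2. In further genes of these states it was 1.19 for Pou5f1, 2.30 for Foxd3, 1.46 for Tdgf1, 2.14 for Tcea3, 1.04 for Mybl2 and 2.53 for Epcam. For growth factors, Notch ligands and genes downstream of ERK it was 4.20 for Fgf15, 2.44 for Fgf4, 1.87 for Fgf17, 1.56 for Fgf5, 1.65 for Fgf8, 2.40 for Jag1, 1.53 for Jag2, 1.75 for Hes6, 2.37 for Ccnd1 and 1.23 for Etv5. For germline and imprinted genes it was 1.94 for Sycp3, 1.63 for Mael, 1.75 for Rhox5 and 1.16 for H19. For genes of adhesion, the cytoskeleton and the cell surface it was 1.79 for Krt18, 1.11 for Cldn7, 1.08 for Cgn, 1.56 for Tagln, 1.25 for Thy1, 1.66 for Car4, 1.31 for Cthrc1 and 3.37 for Has2. For enzymes, a hormone and the remaining genes it was 4.11 for Cbr3, 3.97 for Enpp2, 2.89 for Gldc, 2.36 for Tdh, 1.71 for Gclm, 1.01 for Txnrd1, 3.01 for Glyatl3, 2.25 for Trh, 3.50 for Pim2, 2.51 for Mtap7d3 and 2.93 for Vrtn. 

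Lower differences in KO follow, and on chromosomes 6, 8 and 12 they include the offset of the Ctrl medians given above. For Hox genes and their partners the difference was -5.54 for Hoxb1, -5.16 for Hoxb8, -4.84 for Hoxb4, -4.32 for Hoxa5, -3.82 for Meis2 and -3.22 for Meis1. For other genes that respond to or handle RA it was -6.38 for Cyp26a1, -4.47 for Stra6, -4.63 for Stra8, -3.29 for Rarb, -1.64 for Crabp2 and -1.26 for Crabp1. For neural and mesodermal regulators it was -6.81 for Meox1, -2.37 for Irx3, -1.33 for Pax6, -1.50 for Neurog1, -1.59 for Dcx, -1.05 for Ncam1, -2.39 for Snai1, -1.41 for Snai2 and -2.12 for Cdh2. For endodermal and trophectodermal regulators it was -2.02 for Foxa1, -1.54 for Foxa2, -1.20 for Gata2 and -1.46 for Tfap2a. For Wnt, Nodal, BMP, Notch and FGF genes it was -3.85 for Cdx1, -3.28 for Sp8, -2.22 for Sp5, -2.56 for Wls, -1.65 for Bmp7, -1.21 for Bmp4, -2.09 for Dll1, -2.59 for Fgf10, -1.45 for Fgfr1 and -1.07 for Fgfr2. For imprinted, germline and two-cell-like genes it was -2.65 for Peg3, -2.62 for Igf2, -2.58 for Meg3, -1.45 for Mest, -1.33 for Plagl1, -3.29 for Rhox6, -3.06 for Rhox9, -3.84 for Zscan4d, -2.42 for Pramel7, -1.83 for Pramel6 and -1.44 for Crxos. For genes of the cell cycle, ERK feedback and LIF response it was -3.13 for Ccnd2, -2.26 for Phlda1, -1.19 for Spry4, -1.95 for Fos and -1.09 for Bcl3. For genes of adhesion, transport and metabolism it was -3.62 for Dsp, -1.76 for Itga3, -1.21 for Marveld2, -7.02 for Arg1, -2.84 for Aqp3, -2.80 for Slc51a, -1.79 for Scd1, -1.14 for Slc2a1 and -1.05 for Slc2a3. For the remaining genes it was -6.36 for Zfp703, -6.31 for BC048679, -1.95 for Gm9376, -1.09 for S1pr1 and -1.03 for Cd3g.

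The calls of some of these differences were not stable. With 1 of the 12 libraries of d0 and d4 left out, the call was lost for Cd3g in 10 cases (-1.11 to -0.82), for Fos in 9 (-2.06 to -1.47), for Gata2 in 7 (-1.28 to -0.95), for Thy1 in 7 (1.02 to 1.25), for Spry4 in 6 (-1.18 to -1.03), for S1pr1 in 4 (-1.05 to -0.94), for Tagln in 4 (1.28 to 1.49) and for Bmp4 in 3 (-1.17 to -1.09). The call of Fos was also lost under 6 other settings (-1.95 to -1.42), namely eBayes without trend, the replicate block, the samples of the contrast only, median-ratio rescaling, quantile normalization and the removal of chromosome medians. The call of Cd3g was lost under 6 other settings (-1.62 to -0.69) and that of Gata2 under 5 (-1.20 to -0.50). With a pseudocount of 5 the difference of H19 was 0.015 and was not called.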

How the results depend on the processing

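Of 108 recomputed counts of changed genes, 93 stayed within 1.5 times the reported count. Where only genes with a mean of at least 10 TPM were tested, which leaves 8396 genes, 995 rose and 491 fell in KO, 1366 rose in Ctrl, and 324 differences of change were higher and 541 lower. With a pseudocount of 5, which shrinks the changes of low genes, 858 rose and 515 fell in KO, 1335 rose in Ctrl, and 283 differences were higher and 546 lower. After quantile normalization, 1001 rose in KO, 1219 rose in Ctrl and 1233 fell in Ctrl, and 1166 fell in Ctrl after median-ratio rescaling and 1086 with chromosome medians removed. Without 1 library each, 1612 to 1715 genes rose and 759 to 788 fell in KO, 2252 to 2374 rose and 679 to 708 fell in Ctrl, and 459 to 508 differences were higher and 914 to 1002 lower.

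Same-numbered KO libraries of d0 and d4 deviated together with correlations of 0.18, 0.21 and -0.05, so the numbers were not taken to pair the samples. Replicates 1 and 2 correlated best with their own number and replicate 3 did not. With the replicate number as a block, 1644 genes rose and 780 fell in KO.

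Of 4019 recomputed KO changes of 254 named genes, 3920 kept direction and call, 71 lost the call, 26 gained it and 2 reversed, those of Cdh2 (-0.067) and Meis2 (-0.058) after quantile normalization. Rises of Jag1 (0.33), Lefty2 (0.33) and Tubb3 (0.36) were not called after median-ratio rescaling, nor those of Zic5 (0.29), Rarb (0.51), Wls (0.34) and Foxc1 (0.52) after quantile normalization, while falls of Dnmt1 (-0.29) and Il6st (-0.37) were called under the former. Of 2462 recomputed differences of change, 96 lost the call, and none reversed. With voom these included Car4 (1.95), Cthrc1 (2.45), Krt18 (2.04), Has2 (2.78) and Sp5 (-3.37). The cause was not tested. Of 527 recomputed list medians, 143 moved by more than the spread between replicates. Depth limits what can be said of genes with few reads, such as Zeb2 in KO.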
